A study of Homo sapiens with 12 samples.

Results

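The right part of human chromosome 7 was examined as a block of neighbouring genes in HCT116, a human colorectal carcinoma cell line. Members were chosen by position and expression: every measured gene that starts at or beyond 70 Mb on chromosome 7 (GRCh38) with a mean expression of at least 1 on the log2 scale of counts scaled to library size (logCPM, from CPM), leaving out MET and ASNS. This gave 399 genes out of 15074 measured, of which 13260 passed the same expression filter genome-wide. In the segment 454 genes were measured and 53 of them fell under the filter. The segment itself was proposed because its genes were higher together in knockout against parental cells, so values of that contrast chose it and are given as a description, with no test.

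The series has 4 groups of 3 libraries: parental HCT116 cells, AGO2 knockout cells, and the knockout carrying FH-tagged AGO2 as wild type (FH-WT) or as the 5xA mutant (FH-5xA). All 12 wells were seeded with 500000 cells and harvested at 48 h. The last 3 groups share the AGO2 knockout background, and each group is one line grown in 3 wells, so p-values measure the spread between wells and not between independently made lines. AGO2 mRNA stood at -0.35 ± 0.07 (log2, standard error) in knockout against parental in the authors' deposited tables. Against knockout it stood at 0.75 ± 0.07 with the wild type and 0.73 ± 0.07 with the mutant. Of 7 epithelial markers fixed for this line, 5 (EPCAM, KRT8, KRT18, CDX2 and CDH1) were among the measured genes. In knockout against parental CDH1 stood at -0.97, EPCAM at -0.58, KRT18 at -0.46, KRT8 at -0.36 and CDX2 at -0.04 in the authors' deposited table, and the part of this shift in the members' values was not tested.

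Genes on one chromosome arm have unrelated functions, but they share the number of DNA copies of that arm. In cancer lines a gain or loss of an arm typically moves the RNA of most of its genes by a similar factor, while single genes keep their own regulation on top of it. DNA copy number was not measured here, so a copy change and a change in transcription of the segment cannot be told apart. AGO2 is an Argonaute, the protein class that carries microRNAs and silences the mRNAs they pair with. In bulk RNA, more RNA in each cell and more cells that express a gene also cannot be told apart.

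Promoter sequences are shown for the member farthest above its neighbours, CPA4, and for SAMD9 and PARP12, interferon-linked members whose windows hold the letters of an interferon response element. They come from RefSeq (GRCh38.p14, 250 bases before to 50 after the gene start) and run 5′ to 3′ along the gene's strand. Capitals mark matches to TGANTCA (the AP-1 site), TATAAA (the TATA box) and GAAANNGAAA (the core of the interferon-stimulated response element), each searched on both strands.
CPA4 (chromosome 7, 130292911 to 130293210, plus strand): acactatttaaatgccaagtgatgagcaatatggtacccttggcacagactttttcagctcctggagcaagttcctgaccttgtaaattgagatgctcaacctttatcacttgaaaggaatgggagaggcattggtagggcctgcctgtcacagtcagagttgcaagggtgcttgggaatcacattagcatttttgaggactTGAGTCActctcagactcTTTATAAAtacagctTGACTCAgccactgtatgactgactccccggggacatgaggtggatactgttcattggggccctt
SAMD9 (chromosome 7, 93117930 to 93118229, minus strand): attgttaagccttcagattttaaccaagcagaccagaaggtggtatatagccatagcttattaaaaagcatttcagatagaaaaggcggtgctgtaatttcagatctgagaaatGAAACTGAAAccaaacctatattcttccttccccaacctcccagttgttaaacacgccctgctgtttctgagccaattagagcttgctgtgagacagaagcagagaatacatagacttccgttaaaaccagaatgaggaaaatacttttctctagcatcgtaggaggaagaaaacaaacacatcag
PARP12 (chromosome 7, 140062902 to 140063201, minus strand): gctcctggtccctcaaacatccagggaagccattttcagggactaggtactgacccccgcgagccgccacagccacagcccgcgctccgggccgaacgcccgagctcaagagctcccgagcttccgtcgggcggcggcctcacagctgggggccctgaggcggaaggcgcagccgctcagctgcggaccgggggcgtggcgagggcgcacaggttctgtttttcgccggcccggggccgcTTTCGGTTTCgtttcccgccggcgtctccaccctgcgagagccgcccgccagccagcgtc
The CPA4 window held 2 AP-1 matches and a TATA box that reads on both strands, with the 2 overlapping TATA matches forming one run. It contained 1 CpG, against a median of 27 in the 295 member promoters that could be matched by symbol and 14 in all 35116 promoters of this length. The AP-1 letters occurred in 7.71% of all promoters and in 5.08% of the member promoters, and the TATA letters in 11.5% and 4.75%. SAMD9 and PARP12 were 2 of the 6 member promoters with the interferon element, a share of 2.03% against 3.57% of all promoters. A match is a string of letters and not a measured binding site.

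The second set of sequences shows how alike a retrocopy and its source gene are. Processed pseudogenes are reverse-transcribed mRNA copies inserted elsewhere in the genome. The windows below are 90 bases of the pseudogene transcript and of the source gene's coding sequence in GENCODE 29, with the differing bases in capitals.
SEPT7P6 (chromosome 7, right part): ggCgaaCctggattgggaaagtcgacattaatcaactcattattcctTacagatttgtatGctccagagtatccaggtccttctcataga
SEPT7 (chromosome 7, left part): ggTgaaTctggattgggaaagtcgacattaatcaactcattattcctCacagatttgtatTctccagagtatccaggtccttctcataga
YBX1P2 (chromosome 7, right part): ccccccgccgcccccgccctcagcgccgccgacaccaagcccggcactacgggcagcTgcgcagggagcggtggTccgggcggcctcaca
YBX1 (chromosome 1): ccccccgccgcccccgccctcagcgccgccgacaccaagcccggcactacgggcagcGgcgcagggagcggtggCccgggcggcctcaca
The first pair differed at 4 bases in this window and the second pair at 2. These windows begin at coding position 169 of SEPT7 and 40 of YBX1.

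The members stood higher as a block in all 3 lines derived from the knockout. Between knockout and parental cells, the median log2 fold change of the 399 members in the authors' deposited table was 0.49, a 1.4-fold difference, with quartiles at 0.24 and 0.74. It was above 0 in 360 of them (90.2%). The other 2 comparisons with parental, which use the same 3 parental libraries, gave medians of 0.51 for FH-WT and 0.52 for FH-5xA. Genes on other chromosomes had a median of -0.03 in knockout against parental (n = 12586). At a false discovery rate under 0.05 in the deposited table, 287 members were higher (71.9%) and 11 lower (2.76%), beside 24.0% higher and 22.4% lower among all genes with logCPM of at least 1. These counts come from the contrast that chose the segment, so they describe it and nothing is read from them.

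The rest of the chromosome did not share this level. The 189 genes before 50 Mb had a median of -0.93 in knockout against parental, and the 56 genes from 50 to 70 Mb had a median of -0.00. Just outside the position limit, TYW1 stood at 0.06 ± 0.11 and STAG3L4 at 0.27 ± 0.11 in the authors' deposited table. Just inside it, TYW1B stood at 0.55 ± 0.12 and SBDSP1 at 0.31 ± 0.08. TYW1B and SBDSP1 have near-identical relatives on the same chromosome, so the assignment of their reads is uncertain. At the expression limit, AC018639.1 (logCPM 1.0) stood at 0.07 ± 0.22 and ACTR3C (1.04) at 1.29 ± 0.21 inside, and PCOLCE (0.93) at 0.47 ± 0.27 and GNGT1 (0.96) at 1.38 ± 0.31 outside.

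Every bin of 10 Mb along the segment had a median above 0. The lowest of the 9 bins by median in knockout against parental was 150 to 160 Mb at 0.40 (45 genes) and the highest was 110 to 120 Mb at 0.75 (18 genes). In FH-WT against parental the bins from 110 to 120 Mb and 150 to 160 Mb stood at 0.58 and 0.50, and in FH-5xA against parental at 0.61 and 0.50. By expression, the 57 protein-coding members with logCPM up to 3.24 had a median of 0.61 in knockout against parental and the 97 with logCPM from 6.39 had 0.54. Between them, the 86 with logCPM from 3.26 to 4.99 had 0.47, and the 94 from 5 to 6.39 had 0.47. Of the 399 members, 200 lay within 0.25 of the member median and 316 within 0.5, where the median standard error was 0.11.

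**Figure D1:**
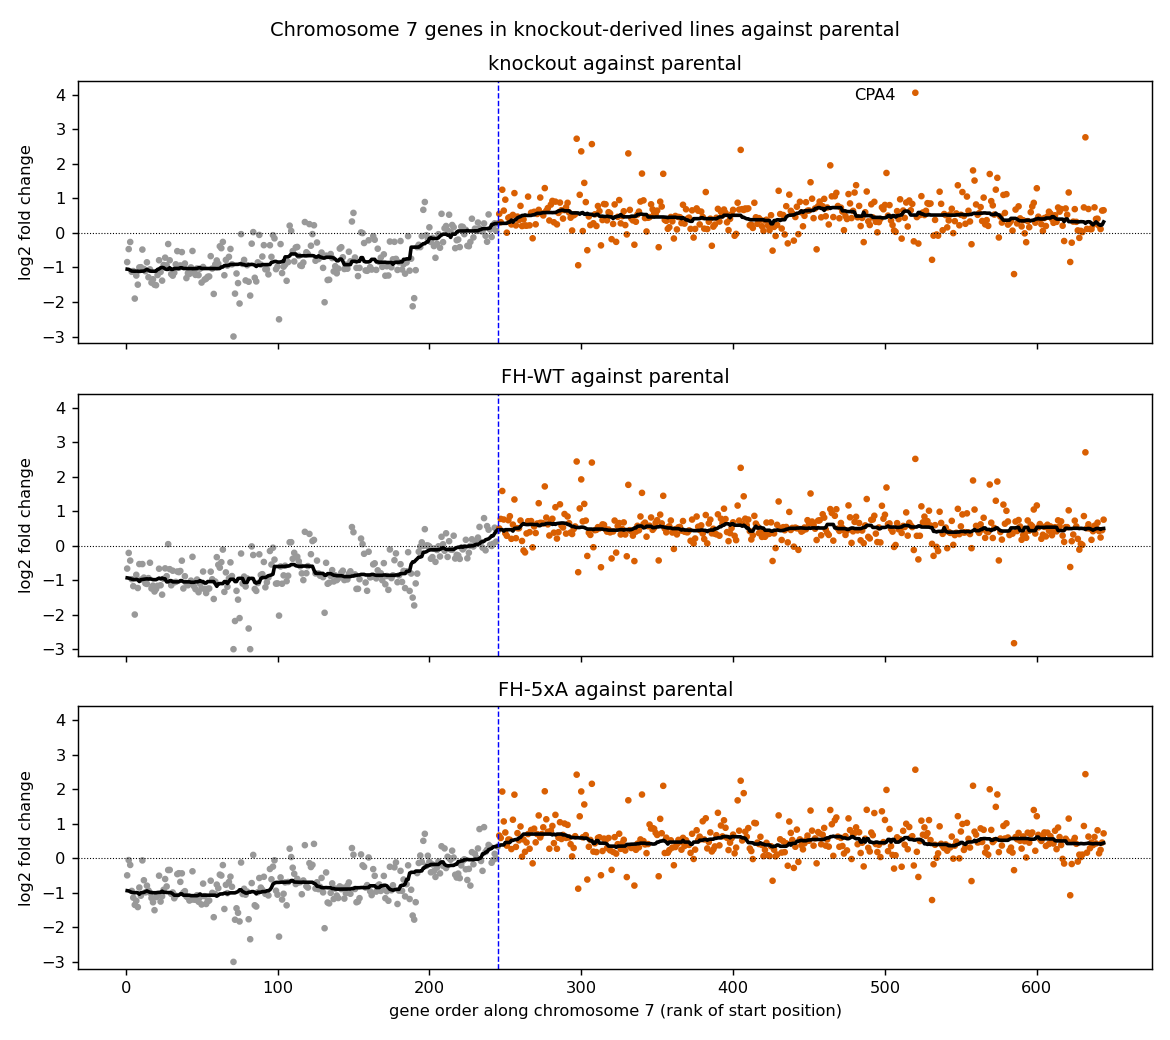
Log2 fold change of 644 genes of chromosome 7 in gene order (x axis, rank of start position; y axis, log2 fold change) for the 3 comparisons with parental; orange points are members, grey points genes before 70 Mb, the blue dashed line the position limit and the black line a running median over 31 genes. The running median lies below 0 on the left and near 0.5 throughout the members, and CPA4 stands far above it in the top panel; 2 genes below -3 are drawn at -3.

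With AGO2 put back, the members as a block lay near 0 against the knockout. The member median in the authors' deposited tables was 0.02 in FH-WT against knockout, with 214 of 399 above 0, and 0.01 in FH-5xA against knockout, with 203 above 0. Genes on other chromosomes had medians of 0.01 and 0.00 in the same comparisons. With FH-WT, 18 members rose (4.51%) and 29 fell (7.27%), beside 4.53% and 6.29% of all genes tested. With FH-5xA, 18 rose (4.51%) and 31 fell (7.77%), beside 4.91% and 6.75% of all genes tested. These shares are near the background in both lines. Both comparisons use the same 3 knockout libraries, which also enter knockout against parental.

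**Figure D2:**
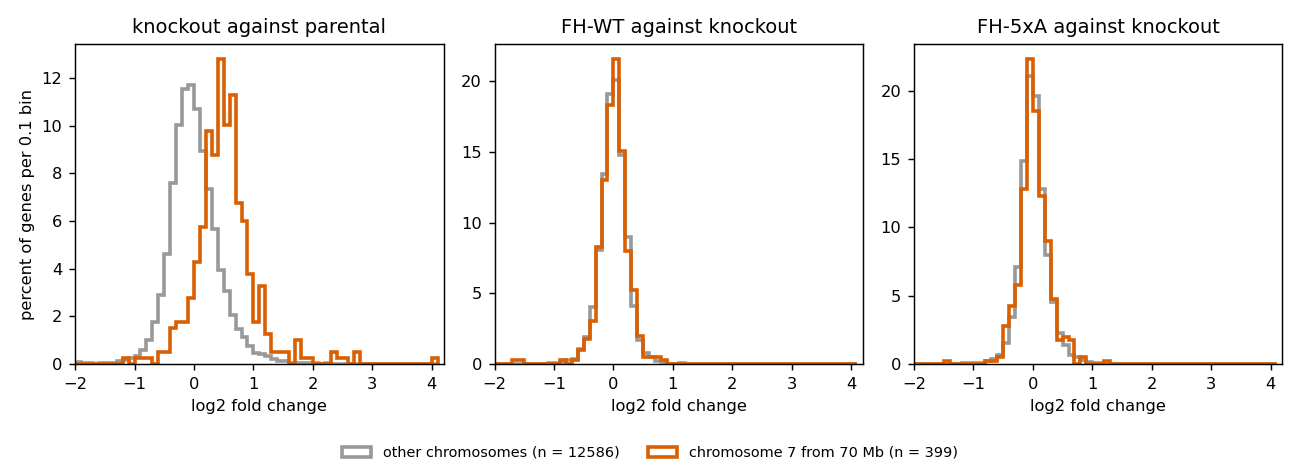
Percent of genes per 0.1 bin (y axis) by log2 fold change (x axis) for the 399 members in orange and 12586 genes of other chromosomes in grey, in 3 comparisons. The members lie to the right of the other genes in knockout against parental, with a median of 0.49 against -0.03, and overlie them in both comparisons with the knockout.

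A small set of genes stood apart from the block. In knockout against parental, 15 members were at least 1 above the member median on the log2 scale (3.76%) and 4 were at least 1 below it (1.0%). Of genes on other chromosomes, 2.24% were at least 1 above their own median and 0.787% at least 1 below. The same distance above the member median was reached by 15 members in FH-WT against parental and by 19 in FH-5xA against parental. In the 3 comparisons 4, 4 and 11 members were as far below. Shares over genes on other chromosomes were computed for knockout against parental only, so nothing is read from the counts in the reconstituted lines. The 15 in the knockout included 13 protein-coding genes, the unitary pseudogene MYH16 and the noncoding AC021218.1.

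CPA4, a secreted carboxypeptidase (ENSG00000128510, chromosome 7, 130293134 to 130324180, GRCh38), was the farthest above. The levels fitted from the authors' deposited tables, which assume that the mean CPM of the 4 groups equals the deposited mean, were 3.53 CPM in parental cells, 58.9 in the knockout, 20.1 with FH-WT and 20.9 with FH-5xA. Knockout was thus the highest group and parental the lowest, with the reconstituted lines between them. No value per library was available, so overlap of single wells could not be read. The log2 difference from parental was 4.06 ± 0.13 for the knockout, 2.51 ± 0.13 for FH-WT cells and 2.57 ± 0.13 for FH-5xA cells. Relative to the knockout, CPA4 fell by 1.55 with wild-type AGO2 (edgeR false discovery rate 1.79e-41 in the deposited table) and by 1.49 with FH-5xA (2.4e-41). Its derived FH-5xA minus FH-WT difference was 0.05 ± 0.11 (Benjamini-Hochberg adjusted p = 0.844).

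The class 3 semaphorins SEMA3C, SEMA3E, SEMA3A and SEMA3D, secreted guidance proteins that signal through plexins, lie close together in the segment and stood at different levels. Comparing knockout with parental in the authors' deposited table, SEMA3C (80742538 to 80922359) was at 2.73 ± 0.08, SEMA3E (83363238 to 83649113) at 2.36 ± 0.14 and SEMA3D (84995553 to 85186855) at 1.45 ± 0.14. SEMA3A (83955777 to 84492724), which lies between SEMA3E and SEMA3D, was at 0.05 ± 0.10. Fitted levels of SEMA3C were 20.9 CPM in parental cells, 139 in the knockout, 113 with FH-WT and 112 with FH-5xA. Those of SEMA3A were 12.8, 13.3, 20.8 and 19.5 CPM in the same order. SEMA3C was thus highest in the knockout, while SEMA3A was highest in the reconstituted lines.

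The neighbours also differed in direction when AGO2 was put back. SEMA3A rose by 0.65 ± 0.10 with FH-WT and 0.55 ± 0.10 with FH-5xA, with edgeR false discovery rates of 3.42e-08 and 1.9e-06 in the authors' deposited tables. SEMA3C fell by 0.29 (0.00339) with wild-type AGO2 and by 0.31 (0.00122) with FH-5xA. SEMA3E fell by 0.44 and by 0.43 (0.00912 and 0.00655). SEMA3D had values of -0.24 and 0.11 that did not pass the test (0.25 and 0.62).

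Genes linked to the extracellular matrix and secretion made up part of the high set. The list of matrix and secreted genes had 12 members with a median of 1.31 in knockout against parental, beside 0.49 for all members and -0.02 for all genes tested. Of these 12, 4 were at least 1 above the member median, among them CPA4, SEMA3C and SEMA3E, beside 3.76% of all members. The list was chosen with earlier results of these data known and holds CPA4, so its median and this count are a description only. LAMB1, a laminin chain, stood at 1.47 ± 0.07 in the authors' deposited table. Against parental it stood at 1.51 in FH-WT cells and at 1.38 in FH-5xA cells. It did not pass the test against knockout in either line (0.79 and 0.50). Of the 12, 1 rose and 4 fell with FH-WT, and 2 rose and 4 fell with FH-5xA, per the authors' deposited tables. All genes tested gave 4.53% higher and 6.29% lower with FH-WT, and 4.91% and 6.75% with FH-5xA.

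The other high members had varied roles. ABCB1, the P-glycoprotein drug efflux pump, stood at 2.57 ± 0.12 in the knockout, 2.41 with FH-WT and 2.16 with FH-5xA, each against parental in the authors' deposited tables. It fell by 0.42 with FH-5xA against knockout (false discovery rate 0.0014), while the value with FH-WT was -0.17 (0.33). The actin-linked genes FLNC, a filamin, and ZYX, which encodes zyxin, stood at 1.74 ± 0.14 and 1.60 ± 0.15 in knockout against parental. HIPK2, a nuclear kinase, stood at 1.81 ± 0.14 and PDK4, a kinase that restrains pyruvate dehydrogenase, at 1.72 ± 0.14. None of these 4 passed the test with either form of AGO2. FOXP2, a forkhead transcription factor, stood at 1.96 ± 0.26 and fell by 0.90 with FH-WT (0.00855), with -0.56 (0.11) for FH-5xA.

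Caveolin and adhesion genes lay nearer to the block. The list of caveolae, cytoskeleton and adhesion genes had 26 members and a median of 0.62 in knockout against parental. CAV1 and CAV2, the neighbouring caveolin genes, stood at 0.78 ± 0.09 and 1.16 ± 0.12 in the authors' deposited table. CAV1 fell by 0.29 with FH-WT (0.0211), while its value with FH-5xA was -0.15 (0.29). TES, a focal adhesion protein encoded nearby, fell by 0.32 (0.000437) with wild-type AGO2 and by 0.39 (3.97e-06) with FH-5xA. In the whole list 3 of 26 fell with FH-WT and 5 of 26 with FH-5xA, beside 6.29% and 6.75% of all genes tested, and 0 rose in either line (4.53% and 4.91% of all genes).

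A pair of genes with interferon-linked roles stood above the block and fell in both reconstituted lines. SAMD9 (ENSG00000205413, 93099513 to 93118023), an antiviral factor, had fitted levels of 28.6 CPM in parental cells, 141 in the knockout, 96.9 with FH-WT and 91.6 with FH-5xA. PARP12, an interferon-inducible ADP-ribosyltransferase (140023744 to 140063721), had 11.7, 33.6, 24.2 and 20.1 CPM. SAMD9 fell by 0.54 (1.17e-06) with wild-type AGO2 and by 0.62 (6.39e-09) with FH-5xA in the authors' deposited tables. PARP12 fell by 0.47 (2e-06) and by 0.74 (4.7e-17). The list of interferon-linked and innate genes had 11 members with a median of 0.59 in knockout against parental. With FH-WT 3 of them fell (SAMD9, PARP12 and TRIM4) and with FH-5xA 3 (SAMD9, PARP12 and ZC3HAV1), beside 6.29% and 6.75% of all genes tested, and 0 rose in either line (4.53% and 4.91% of all genes).

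**Figure D3:**
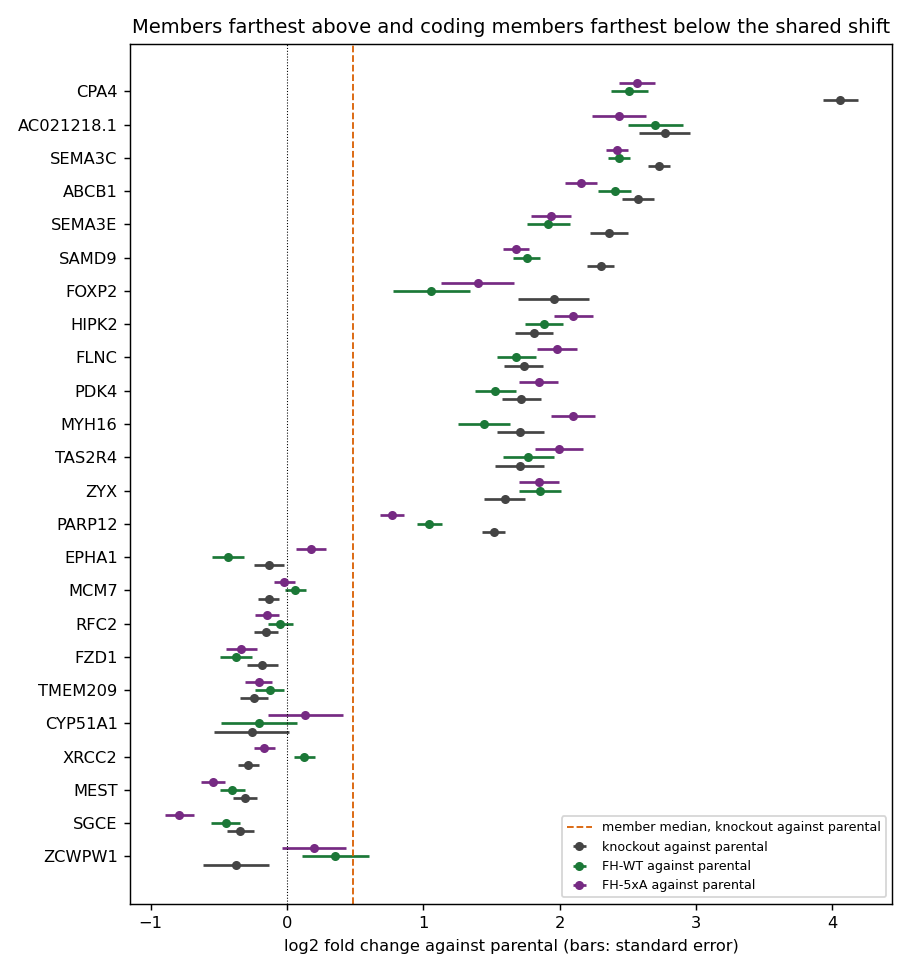
Log2 fold change against parental (x axis) of 14 of the 15 members farthest above the shared level and the 10 protein-coding members with the lowest values, for the 3 comparisons, with standard errors as bars. The dashed orange line is the member median in knockout against parental (0.49). CPA4 is the gene whose knockout value lies farthest right, at 4.06, with both reconstituted lines near 2.5.

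At the low end, 17 of the 334 protein-coding members lay below 0 in knockout against parental. SGCE (94524204 to 94656572), a sarcoglycan, and MEST (130486171 to 130506465) are both imprinted genes expressed from the paternal allele. SGCE stood at -0.34 ± 0.10 in the knockout, -0.45 with FH-WT and -0.79 with FH-5xA, each against parental in the authors' deposited tables. MEST stood at -0.31 ± 0.09, -0.40 and -0.54. Their neighbours did not share these values: PEG10, also paternally expressed and adjacent to SGCE, stood at 0.32 ± 0.11, and COPG2, next to MEST, at 0.52 ± 0.09 in knockout against parental. Allele-specific reads were not analysed here. SGCE fell by 0.45 with FH-5xA against knockout (false discovery rate 0.000939), and MEST had -0.23 (0.07).

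Genes of DNA replication and the cell cycle lay low in the block. The list had 14 members with a median of 0.19 in knockout against parental, and 11 of them lay below the member median. MCM7, a subunit of the replicative helicase, stood at -0.13 ± 0.08, RFC2, a clamp loader subunit, at -0.15 ± 0.09 and XRCC2, a recombination factor, at -0.28 ± 0.08 in the authors' deposited table. With FH-WT 3 of the 14 rose: XRCC2 by 0.41 ± 0.08 (2.63e-05), EZH2, the Polycomb methyltransferase, by 0.28 (0.0124), and DBF4, the activator of the CDC7 kinase, by 0.26 (0.0261). With FH-WT 1 of the 14 fell, and with FH-5xA 0 rose and 3 fell. The shares over all genes tested were 4.53% higher and 6.29% lower with FH-WT, and 4.91% and 6.75% with FH-5xA.

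CDK6, the G1 kinase (92604921 to 92836594), was the member of that list that fell in both lines. Fitted levels were 318 CPM in parental cells, 309 in the knockout, 257 with FH-WT and 218 with FH-5xA. Against knockout it fell by 0.27 (0.0246) with wild-type AGO2 and by 0.50 (5.17e-07) with FH-5xA in the authors' deposited tables. Its value in knockout against parental was -0.04 ± 0.08, well under the level of the block. CDK14 and CEP41 were the other 2 members of the list that fell with FH-5xA.

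RNA processing and translation genes were a further group under the block level. The 28 members had a median of 0.32 in knockout against parental. With FH-WT 6 rose and 1 fell in the authors' deposited table: the risers were SRRT, LSM8, NOM1, MEPCE, RBM28 and METTL2B, between 0.21 and 0.38 on the log2 scale. Over all genes tested the shares were 4.53% higher and 6.29% lower. SRRT links the nuclear cap to RNA processing, LSM8 is part of the U6 snRNP ring and MEPCE caps 7SK RNA. With FH-5xA 2 of the 28 rose, POM121 and POM121C, and 0 fell, where 4.91% of all genes rose and 6.75% fell. These 2 are paralogs with near-identical copies on the chromosome. BUD31, a splicing factor outside that list, rose by 0.39 with FH-WT (0.00904) and had 0.07 with FH-5xA (0.75).

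With FH-5xA the largest rise was VGF, a neuroendocrine secretory protein, at 1.22 ± 0.30 (0.00122), with 0.76 (0.09) for FH-WT. MUC3A, a membrane mucin, rose by 0.80 (0.0028), and MLXIPL, which encodes the carbohydrate response factor ChREBP, by 0.60 (0.000107). POM121 and POM121C, paralogous nuclear pore genes, rose by 0.68 (0.00125) and 0.64 (0.0111). With FH-WT they had 0.33 (0.21) and 0.42 (0.15), which did not pass. Their FH-5xA minus FH-WT differences did not pass the derived chi-square test either (adjusted p = 0.23 and 0.553). Of the 13 members listed as having near-identical copies on the chromosome, 4 rose and 0 fell with FH-5xA, and 0 rose and 0 fell with FH-WT, in the authors' deposited tables. Among all genes tested 4.91% rose and 6.75% fell with FH-5xA, and 4.53% and 6.29% with FH-WT. The list left out SBDSP1 and GTF2IP4, whose transcript was 99.8% identical to GTF2I where aligned. SBDSP1 rose by 0.46 with FH-WT (false discovery rate 5.41e-06) and by 0.28 with FH-5xA (0.0128). GTF2IP4 had -0.61 with FH-WT (0.00751) and -0.21 with FH-5xA (0.41). The counts of 0 with FH-WT therefore depend on which genes were listed. The derived FH-5xA minus FH-WT difference passed in 0 of these 13 members with near-identical copies. Its shares over all genes tested were 2.07% higher and 2.38% lower. Reads of such copies can be split or dropped in counting, and no source used here says how the authors treated them.

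A carrier and an enzyme of mitochondrial metabolism fell in both lines. SLC25A13, the aspartate-glutamate carrier of the mitochondrial inner membrane, fell by 0.32 (0.00046) with wild-type AGO2 and by 0.44 (4.43e-08) with FH-5xA. AASS, the first enzyme of lysine breakdown, fell by 0.35 (0.00463) and by 0.45 (3.26e-05). The list of 23 mitochondrial protein genes had 3 members lower and 0 higher in each line in the authors' deposited tables. Of the 21 metabolic enzymes, 1 fell with FH-WT and 3 with FH-5xA, and 0 rose. Over all genes tested 6.29% fell and 4.53% rose with FH-WT, and 6.75% fell and 4.91% rose with FH-5xA.

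**Figure D4:**
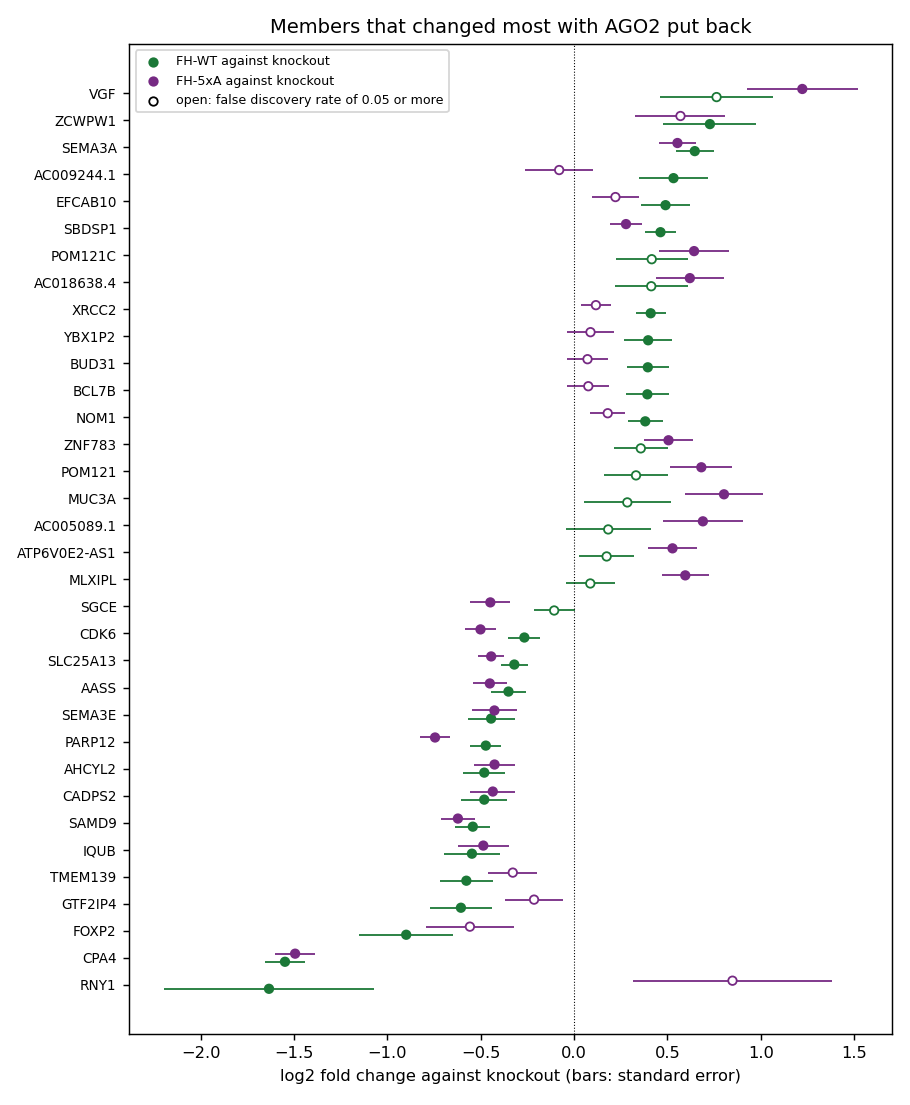
Log2 fold change against knockout (x axis) of the 34 members named as the largest rises and falls, for FH-WT (green) and FH-5xA (purple), with standard errors as bars; filled points passed a false discovery rate of 0.05, and both comparisons share the knockout libraries. CPA4 lies near -1.5 in both lines, and RNY1 lies at -1.63 with FH-WT and 0.85 with FH-5xA.

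The difference between the mutant and the wild-type line, FH-5xA minus FH-WT, was derived from the deposited tables because no table compares them. It passed the test in 5 members as higher in FH-5xA (1.25%) and in 14 as lower (3.51%), beside 2.07% and 2.38% of all genes tested. The 5 higher were EPHA1, RNY1, MYH16, MLXIPL and UBE2H. EPHA1, an ephrin receptor kinase (143390289 to 143408892), had the smallest p of the 19. Fitted levels were 16.6 CPM in parental cells, 15.1 in the knockout, 12.3 with FH-WT and 18.8 with FH-5xA. The difference was 0.61 ± 0.12 in the chi-square test (p = 0.000206, adjusted over all genes). XRCC2 (-0.29, 0.0149) and DBF4 (-0.28, 0.0296) were among the members lower in FH-5xA.

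RNY1, the noncoding Y1 RNA that binds the Ro60 protein, had values of opposite sign with the wild type and the mutant, -1.63 (0.0406) and 0.85 (0.33) against knockout in the authors' deposited tables. Fitted levels were 8.81 CPM in parental cells, 3.86 in the knockout, 1.24 with FH-WT and 6.95 with FH-5xA. The FH-5xA minus FH-WT difference was 2.48 ± 0.57 (adjusted p = 0.00238). Its standard error in knockout against parental was 0.53, against a median of 0.11 for all members, and it is a short transcript in libraries made from total RNA.

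Gene type separated the members further. In knockout against parental the 334 protein-coding members had a median of 0.51, the 27 long noncoding members 0.64 and the 12 unprocessed or unitary pseudogenes 0.55. The 25 processed pseudogenes had a median of -0.22, and 19 of them lay below 0. Processed pseudogenes on other chromosomes had a median of -0.18 (n = 1132). In the left part of chromosome 7, 16 processed pseudogenes stood at a median of -0.08 where 160 protein-coding genes stood at -0.96. Against knockout, the 25 processed pseudogenes of the segment had medians of 0.19 with FH-WT and -0.06 with FH-5xA. The split by gene type was added after the values had been seen.

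Most processed pseudogenes lay close to their source genes in value. A source gene was measured for 19 of the 25, and 16 of these sources lie on other chromosomes. The median distance between a pseudogene and its source was 0.13 on the log2 scale, against 0.75 between a pseudogene and the member median, and 18 of the 19 were nearer to the source. This comparison was largely set in advance, because most sources lie outside the segment and processed pseudogenes on other chromosomes had a median of -0.18. Whether a pseudogene lay nearer to its own source than to other genes outside the segment was not tested. YBX1P2 stood at -0.30 ± 0.13 and YBX1 at -0.31. SEPT7P6 (152367519 to 152368661) stood at -0.84 ± 0.18, far under its neighbours, and SEPT7, in the left part of chromosome 7, at -0.92. MTHFD2P5 stood at -0.94 ± 0.27 and MTHFD2, a folate enzyme gene on chromosome 2, at -0.77, in the authors' deposited table.

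Transcripts of the pairs were similar but mostly not identical over a read. Across the 19 pairs the aligned identity ran from 91.1% to 100% with a median of 95.7%. Of all windows of 75 bases, the cycle number of the sequencing kit, a median of 1.78% of a pseudogene's windows occurred unchanged in its source, and this ran from 0% to 100%. For CDC26 and its copy AC009244.1 every window did, whereas for MTHFD2P5 none did. Whether reads were shared between copies was not tested.

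**Figure D5:**
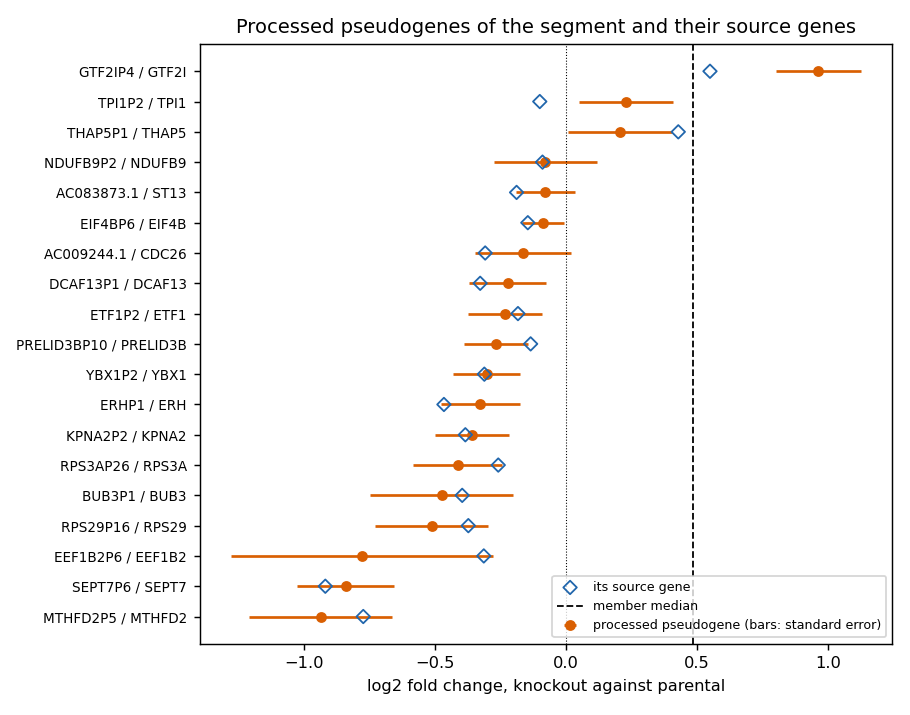
Log2 fold change in knockout against parental (x axis) for 19 processed pseudogenes of the segment (orange, standard errors as bars) and their source genes (blue diamonds). Most diamonds lie within the bars of their pseudogene, and most pairs lie below 0, left of the member median of 0.49 (dashed line).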

How the data were processed

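Stranded, ribosomal RNA-depleted libraries of 12 wells were compared by the authors. The submitters' processing notes name edgeR 3.8.6, featureCounts 1.4.6, TopHat2 2.0.12 and Cufflinks 2.2.1, with GRCh38. For each gene the 5 deposited tables hold the log2 fold change, logCPM (log2 CPM), the likelihood ratio (LR) as a score, the p-value and the false discovery rate, per the file headers. The sources used here do not give the annotation, the count filter, the normalization or the use of strand. Without strand, reads of overlapping and antisense genes cannot be told apart. Counts per library were not analysed here, so depth is unknown and the planned count tests gave way to the deposited tests. Standard errors are the absolute log2 fold change divided by the square root of the score. FH-5xA minus FH-WT is the difference of both fold changes against knockout, with variances solved from the 5 squared standard errors by least squares, a chi-square test with 1 degree of freedom and Benjamini-Hochberg adjustment over 15072 genes (undefined in 2). The derivation was run on simulated data with normal errors, drawn from the same variances that it solves. That run checked the arithmetic and could not show whether standard errors taken from the score are accurate in these libraries. Calls use a false discovery rate under 0.05.

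Positions and gene types come from GENCODE 29; 45 measured genes had no position. Scripts used Python 3.11.15, pandas 2.3.3, scipy 1.17.1 and Biopython. The members, 18 gene lists and comparisons were chosen with earlier results of these data known; 23 misassigned entries were removed from lists after values were seen. Named genes are CPA4, the 10 members farthest above and below the member median, the 10 largest called rises and falls against knockout, up to 10 called in the derived difference, up to 4 per list, and those nearest a threshold. Other genes were named after their values were seen. A member that the rule names is not reported here.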

Additional observations from a re-analysis of the deposited data

Results flagged for a closer look

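In 19 members the value against knockout differed between the mutant and the wild-type line, by the derived test of the difference (FH-5xA minus FH-WT, log2, adjusted over all genes). These were 1.25% of members higher and 3.51% lower, beside 2.07% and 2.38% of all genes tested. Each form of AGO2 was present in 1 line, so a difference between the proteins and one between the lines cannot be told apart. The 5 positive differences were EPHA1 at 0.61, the small RNA RNY1 at 2.48, MYH16 at 0.66, MLXIPL at 0.51 and the ubiquitin-conjugating enzyme UBE2H at 0.25. Negative differences were found for the membrane protein STEAP1 at -0.40, the Arp2/3 subunit ARPC1A at -0.34, the proteasome ATPase PSMC2 at -0.32, PON2, a paraoxonase, at -0.30, XRCC2 at -0.29 and IFT22, a ciliary transport protein, at -0.32. RHEB, the GTPase that activates mTORC1, was at -0.31, DBF4 at -0.28, CALU, a calcium-binding protein of the endoplasmic reticulum, at -0.31, THAP5 at -0.25, NUB1 at -0.32 and PARP12 at -0.27. The 2 processed pseudogenes ERHP1 and AC009244.1 were at -0.59 and -0.61. Of the 75-base windows of AC009244.1, 100% occurred unchanged in CDC26, while 0% of those of ERHP1 occurred in ERH. Whether reads of either pseudogene were shared with its source gene was not tested.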

How the results depend on the processing

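The member medians against parental lay between 0.47 and 0.54 and those against knockout between -0.01 and 0.02 under every alternative run: no expression filter, logCPM of at least 3, a start at 80 Mb, protein-coding genes only, and centring on other chromosomes. Only counts that changed by more than a factor of 1.5 are listed next, and shares over all genes at these settings were not computed. At a false discovery rate under 0.01 the members higher and lower became 6 and 17 with FH-WT, 9 higher with FH-5xA, and 2 lower in the derived difference. Members higher with FH-5xA were 10 at logCPM of at least 3 and 11 from 80 Mb. Members above the shared shift were 23 at a departure of 0.75, 7 at 1.5 and 23 without an expression filter; those below were 17 at 0.75 and 1 at 1.5. Single named genes lost the call in 27 of 564 settings, all at a false discovery rate under 0.01. Genes without a call could not change at that rate, and centring could only reverse the direction of a called gene. Many of the 537 unchanged settings therefore could not have changed, and their number is no measure of stability. No paired analysis was possible because the tables hold no values per library; for the same reason leaving out each replicate and the replicate block were not run. Depth is unknown, so no limit for low genes could be set.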
